A study of Mus musculus with 2 samples.

Results

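The cells described here are wild-type iPSCs (mouse somatic cells reprogrammed to pluripotency) that had the highest and the lowest combined level of 6 genes of the naive pluripotent state, Nanog, Esrrb, Tfcp2l1, Klf4, Tbx3 and Dppa3. Each cell of the wild-type library with at least 1000 detected genes, 1 to 10% mitochondrial counts and at least 15000 UMIs (unique molecular identifiers, each standing for 1 captured transcript) was given the mean, over the 6 genes, of the z-score of log2(1 + UMIs per 10000). The 25% of these cells with the highest scores, 185 of 740, are called naive-high, and the 25% with the lowest, also 185, naive-low. The cells between them form a lower-middle and an upper-middle group of 185 each, so that there are 4 score groups. The wild-type library held 954 deposited cells and the whole series 2027. The score is a continuous range and the score groups are not cell types. The naive-high group began at a score of 0.37, and the naive-low group ended at -0.34. The naive-high cell nearest the limit scored 0.3699 and the first cell outside it 0.3698. At the lower limit the corresponding scores were -0.343 inside and -0.342 outside. Of the 740 cells, 59 lay within 0.05 of the upper limit and 43 within 0.05 of the lower one.

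The study profiled iPSCs lacking serum response factor (SRF, a transcription factor of actin and immediate early genes; genotype SRFΔ/Δ, called knockout) beside iPSCs with the floxed, undeleted alleles (SRFf/f, called wild type). Both genotypes were grown in medium with serum, and single cells were captured on the 10x Genomics Chromium system. There was 1 library per genotype, so no test between conditions is possible. Cells of 1 culture are not replicates, and all intervals given are 95% intervals for counting error only.

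Naive pluripotency is the state of the mouse inner cell mass and of embryonic stem cells kept undifferentiated by the cytokine LIF. It is held by a network of transcription factors that includes the genes of the score other than Dppa3. In serum, mouse pluripotent cells are known to be a mixture in which several of these factors vary from cell to cell. Cells that leave the state lose these factors and then gain genes of formative and primed pluripotency, the states of the epiblast around and after implantation.

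After the filter the wild-type library held 740 cells with a median of 28674 UMIs (15038 to 65395), and the knockout library 632 of 1073 cells with a median of 26353. The libraries shared 2 cell barcodes among the deposited cells and 1 among those kept. Srf stood at 8.79 CPM (the UMIs of a gene per 1000000 UMIs of the same cells; 7.59 to 10.1) in wild-type and 0.905 CPM (0.517 to 1.47) in knockout cells, and 13 of the 16 knockout Srf UMIs were in cells of other types. Among the kept cells, 8 wild-type and 18 knockout cells were feeder-like, with more counts of fibroblast markers than of general pluripotency genes. A further 1 wild-type and 81 knockout cells were primitive endoderm-like, with at least 4 markers of that lineage. All 8 feeder-like cells and the single primitive endoderm-like cell of the wild type fell in the naive-low group, so the main results are also given without these cells ("without other cell types"). Fibroblast markers summed to 291 CPM in the naive-low group and 13.8 CPM without other cell types, against 9.35, 9.07 and 7.96 CPM in the 3 groups above it. A raised share of chromosome 8 counts (over 1.2 times the wild-type median) was found in 9.32% of wild-type and 50.8% of knockout cells.

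Median depth per cell was 29008, 30309, 28304 and 27360 UMIs from the naive-low to the naive-high group, and median mitochondrial shares were 3.12, 3.39, 3.32 and 3.72%. Cells with a raised chromosome 8 share made up 22, 21, 16 and 10 of the 185 cells. The part of depth, mitochondrial share and chromosome 8 in the contrasts was not tested beyond the alternatives given below. Cell-cycle genes stood at like levels in all 4 groups: the S phase list had medians of 19.3, 21.4, 20.6 and 20.3 UMIs per 10000, and the G2 and M phase list 35.8, 36.6, 34.5 and 35.1.

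The 6 genes of the score lie on 5 chromosomes, with Nanog (ENSMUSG00000012396, chr6:122707489-122714633, plus strand) and Dppa3 (ENSMUSG00000046323, chr6:122626410-122630272, plus strand) as near neighbours. Esrrb lies at chr12:86361117-86521628, Tfcp2l1 at chr1:118627945-118685168, Klf4 at chr4:55527143-55532466 on the minus strand and Tbx3 at chr5:119670669-119684724 (build GRCm38, the genes' full extent). The promoters of the score genes are shown because these genes were used together as 1 measure. The 250 bases before the start site were given for 4 of the 6 genes in a RefSeq table of build GRCm38.p6, here 5′ to 3′ on the gene's strand. Capitals mark 3 motifs searched on both strands: TTTGCAT (POU5F1-type), ACAATG (SOX2-type) and CCACCC (KLF-type).
Nanog, chr6:122707239-122707488: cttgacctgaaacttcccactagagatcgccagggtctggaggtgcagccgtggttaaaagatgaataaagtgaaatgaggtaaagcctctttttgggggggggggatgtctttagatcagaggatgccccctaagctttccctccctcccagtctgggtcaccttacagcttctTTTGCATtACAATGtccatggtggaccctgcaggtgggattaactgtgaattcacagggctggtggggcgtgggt
Esrrb, chr12:86360867-86361116: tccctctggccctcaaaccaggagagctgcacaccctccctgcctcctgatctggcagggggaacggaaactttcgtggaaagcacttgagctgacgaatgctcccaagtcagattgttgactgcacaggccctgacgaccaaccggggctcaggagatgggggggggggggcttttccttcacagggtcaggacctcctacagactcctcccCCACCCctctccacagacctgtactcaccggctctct
Tfcp2l1, chr1:118627695-118627944: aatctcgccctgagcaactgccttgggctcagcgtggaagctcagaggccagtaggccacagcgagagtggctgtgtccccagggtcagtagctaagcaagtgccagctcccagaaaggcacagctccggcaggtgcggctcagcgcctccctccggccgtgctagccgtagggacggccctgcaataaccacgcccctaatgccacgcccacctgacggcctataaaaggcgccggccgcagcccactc
Klf4, chr4:55532476-55532725: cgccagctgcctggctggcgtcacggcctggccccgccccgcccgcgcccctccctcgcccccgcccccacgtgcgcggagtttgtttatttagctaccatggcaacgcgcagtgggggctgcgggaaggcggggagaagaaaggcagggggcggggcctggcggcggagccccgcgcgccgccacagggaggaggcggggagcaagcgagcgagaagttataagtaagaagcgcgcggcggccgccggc
The Nanog promoter held TTTGCAT 75 to 69 bases and ACAATG 67 to 62 bases before the start, 1 base apart. TTTGCAT was present in 4.12% and ACAATG in 10.7% of 32851 promoter windows of this length, and both joined with 1 base between, as here, in 2 of them. The Esrrb window held CCACCC 37 to 32 bases before the start, a motif found in 28.1% of windows. None of the 3 motifs was found in the Tfcp2l1 and Klf4 windows, which had a GC content of 65.2% and 74% and 16 and 32 CpG sites, against medians of 52.4% and 6 over all windows. The Nanog and Esrrb windows had 52% and 60.8% GC with 3 and 6 CpG sites.

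Across the wild-type cells the score ran from -1.30 to 1.58 with a median of 0.01 and an SD of 0.54. The group medians were, from low to high, -0.64, -0.14, 0.20 and 0.59.

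**Figure D1:**
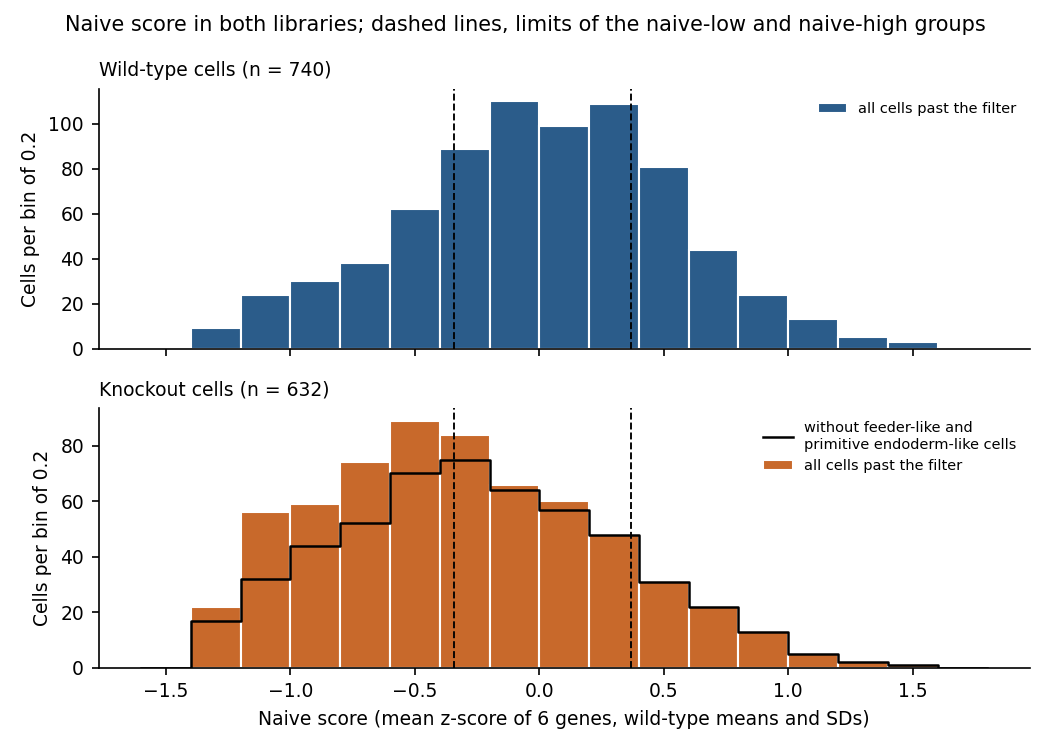
Number of cells (vertical axis) by score (horizontal axis, mean z-score of the 6 genes) in the wild-type and the knockout library, with the limits of the naive-low and naive-high groups marked. The wild-type scores form a single broad range around 0.01, and the knockout scores sit lower, with a median of -0.36.

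By construction all 6 genes were higher in the naive-high group, so the following levels describe the selection and support nothing. Nanog, the homeobox factor of the pluripotent core, stood at 43.9, 75.9, 122 and 168 CPM from the naive-low to the naive-high group (over the summed UMIs of each group's cells). Klf4, a Krüppel-like factor downstream of LIF and STAT3, stood at 117, 269, 349 and 525 CPM. Tbx3, a T-box factor, had the steepest gradient with 11.9, 29.1, 49.2 and 101 CPM. Each gene increased in order through the 4 score groups. Esrrb, an orphan nuclear receptor, stood at 25.3, 54.3, 72.9 and 103 CPM. Tfcp2l1, a Grainyhead-family factor, stood at 21.2, 53.5, 82.2 and 117 CPM. Dppa3, a maternal-effect factor that protects against DNA demethylation, had the flattest gradient with 59.6, 105, 137 and 182 CPM.

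The shares of cells in which the genes were detected also describe the selection. After every cell was thinned to 15000 UMIs, Klf4 was detected in 64.3% of naive-low and 98.4% of naive-high cells (76.8 and 100% unthinned). Tbx3 was detected in 14.6 and 70.3% (23.8 and 87.0% unthinned), and Nanog in 40.5 and 87.0% (60.5 and 96.2% unthinned). In the 8 feeder-like cells, which had a median of 27127 UMIs, no thinned cell held Nanog, Esrrb, Tfcp2l1 or Dppa3, which allows an exact upper limit of 36.9%. Klf4 was detected in 4 (50%) and Tbx3 in 3 (37.5%) of these 8 cells, which are themselves part of the naive-low group. Tbx3 stood at 55.1 CPM in them and at 10.1 CPM in naive-low cells without other cell types. Without other cell types the naive-low shares were 65.3% for Klf4 and 13.6% for Tbx3, close to those with them. Whether the counts in feeder-like cells are background or expression was not tested, nor was the part of background in the other cells.

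To measure each gene without its own part in the score, cells were grouped in the same way by the other 5 genes alone. Klf4 was then at 183 CPM in the lowest and 415 CPM in the highest group, a log2 ratio of 1.18 (1.07 to 1.29). Tbx3 stood at 25 and 69.9 CPM (log2 ratio 1.48, 1.2 to 1.78), and Tfcp2l1 at 40.3 and 92.4 CPM (1.2, 0.97 to 1.43). Nanog stood at 62.7 and 130 CPM (1.06, 0.87 to 1.25), and Esrrb at 40.2 and 75.9 CPM (0.92, 0.68 to 1.16). These 5 genes were each higher in the cells chosen by the others. Dppa3 was not: it stood at 107 CPM in the lowest and 100 CPM in the highest group of the other 5 genes, a log2 ratio of -0.09 (-0.26 to 0.08). Without other cell types the ratio was -0.19 (-0.36 to -0.02), while those of the other genes lay between 0.84 (Esrrb) and 1.43 (Tbx3).

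The pairwise relations between cells were weak. Over the 731 wild-type cells without other cell types, thinned to 15000 UMIs and so of equal depth, Spearman's coefficient was 0.27 for Klf4 with Tbx3, 0.22 for Esrrb with Klf4, 0.21 for Tfcp2l1 with Klf4 and 0.20 for Tfcp2l1 with Tbx3. Nanog and Esrrb had a coefficient of 0.03. Dppa3 had 0.16 with Nanog, and -0.02, -0.02, -0.09 and -0.11 with Esrrb, Tfcp2l1, Klf4 and Tbx3. These coefficients describe cells of 1 library, and are not corrected for counting noise.

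**Figure D2:**
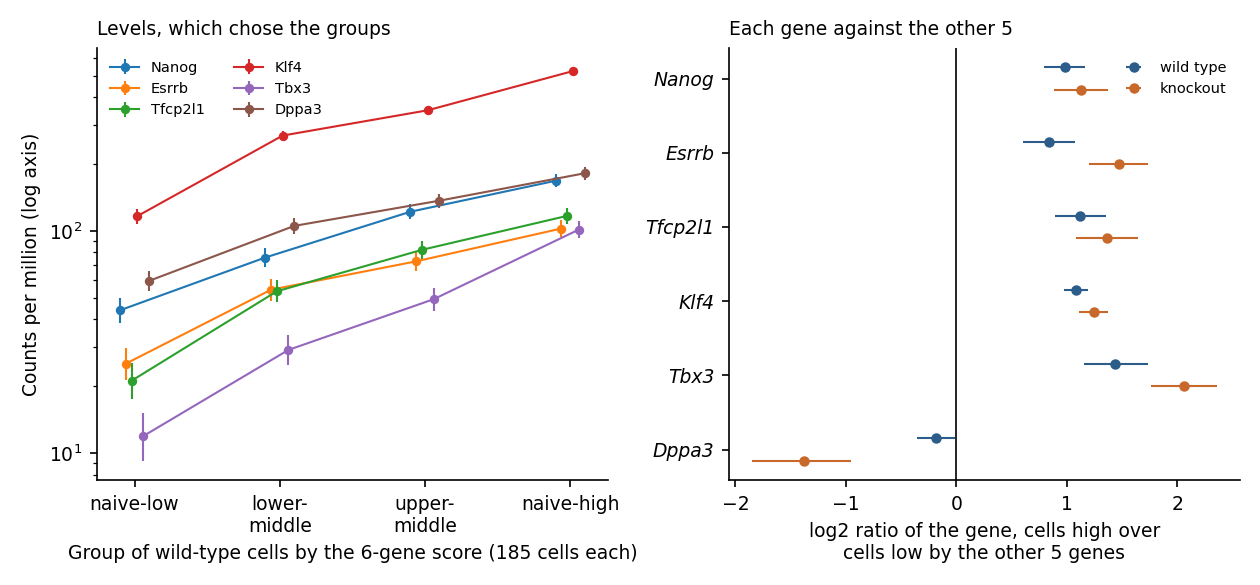
Left, CPM of the 6 score genes (log axis) in the 4 wild-type score groups with exact Poisson intervals; right, log2 ratio of each gene between the highest and lowest group by the other 5 genes, in wild-type and knockout cells without other cell types. All but 1 of the genes lie above 0 in both libraries, and Dppa3 lies at -0.19 in the wild type and -1.38 in the knockout.

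Among genes outside the score, other naive-state genes such as Klf2 were higher in naive-high cells, and genes of the primed and formative state such as Pou3f1 were lower. A level limit (mean over the naive-high and naive-low groups of 20 CPM or more) left 4356 genes. Of these 88 were at least 1.5-fold higher in naive-high cells, 2.02% of those tested, and 149 at least 1.5-fold lower, 3.42%, which makes 5.44% in either direction. Without other cell types 74 genes (1.7%) were higher and 105 (2.42%) lower of 4343, and 69 and 96 genes were called in both. The median log2 ratio over all genes was -0.03, with percentiles 10 and 90 at -0.35 and 0.28, and 44.5% of genes lay above 0. The split of calls depends on the scaling: 37.1% of calls were higher with totals as library sizes, and 55.3% (136 higher, 110 lower) with TMM factors. In the middle groups, which did not enter the calls, 70 of the 88 higher genes were higher in the upper-middle than in the lower-middle group (79.5%, against 43.4% of all genes tested). Of the 149 lower genes, 105 were lower there (70.5%, against 56.6%). The middle groups come from the same library and scores. Without the 5 cells of each group that held most UMIs of a gene, 87 of the 88 higher genes stayed past 1.5-fold. Of the 149 lower genes 118 did, and 3 lay on the other side.

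Other naive-state genes, a list of 23 without the score genes, were higher in naive-high cells as a group. Of 19 tested, 10 were at least 1.5-fold higher and none lower (2.02% and 3.42% of all genes), 17 lay above 0 (44.5% of all genes), and the median log2 ratio was 0.59 against -0.03 for all genes. Leaving out other cell types gave 9 higher genes and a median of 0.57. With TMM factors 12 were higher and the median was 0.67.

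Klf2 (ENSMUSG00000055148, chr8:72319033-72321656), a Krüppel-like factor that acts beside Klf4, stood at 360, 523, 586 and 682 CPM from the naive-low to the naive-high group, a log2 ratio of 0.92 (0.84 to 1). Jam2, a junctional adhesion molecule, stood at 45.7, 71.3, 80.4 and 97.1 CPM (1.09, 0.87 to 1.31). Both increased in order through all 4 groups. Tcl1, a cofactor of AKT kinases, stood at 34.1, 54.5, 51.8 and 65.4 CPM (0.94, 0.68 to 1.2). Mybl2, a MYB-family factor of proliferating cells, stood at 279, 413, 459 and 488 CPM (0.81, 0.71 to 0.90). Mybl2 also increased in order, and for each of Klf2, Jam2, Tcl1 and Mybl2 the widest step was between the naive-low and the lower-middle group.

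The demethylating enzyme Tet2 had a log2 ratio of 0.91 (0.53 to 1.30), the growth factor Fgf4 0.72 (0.43 to 1.03) and the imprint-maintaining zinc finger protein Zfp57 0.72 (0.47 to 0.98). Fbxo15, an F-box protein long used as a pluripotency reporter, had 0.71 (0.32 to 1.12), falling to 0.32 when Dppa3 was left out of the score. Ooep, an oocyte-expressed protein gene, had 0.63, falling to 0.27 without Dppa3. Zfp42, also called Rex1, with 61.0, 80.6, 75.2 and 92.0 CPM, lay at 0.59 (0.39 to 0.80), near the 1.5-fold limit of 0.58. Dppa5a, one of the most abundant transcripts of the list, had 8361 CPM in naive-low and 11372 CPM in naive-high cells (0.44, 0.43 to 0.46). Gbx2 and Dppa4 lay below 0, at -0.26 (-0.66 to 0.13) and -0.14 (-0.32 to 0.05). Of the 4 genes under the level limit, Prdm14, a repressor of the primed programme, had 7 UMIs in naive-low and 29 in naive-high cells, and Nr5a2, an orphan nuclear receptor, 27 and 64.

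General pluripotency genes, which stay on in primed cells too, had no common direction. Of 9 tested, 2 were at least 1.5-fold higher and none lower (2.02% and 3.42% of all genes), and the median was -0.14. Sox2, the partner of Pou5f1, stood at 161, 177, 206 and 258 CPM (0.68, 0.56 to 0.80), and Sall4, a zinc finger factor, at 51.4, 61.6, 71.5 and 78.6 CPM (0.61, 0.39 to 0.84). Pou5f1, which encodes OCT4, stood at 715, 850, 845 and 821 CPM (0.20, 0.14 to 0.26). The other 7 genes lay within 1.5-fold.

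Genes of the primed and formative state were higher in naive-low cells. Of 7 tested from a list of 15, none was higher in naive-high cells and 6 were at least 1.5-fold lower. Over all genes these shares were 2.02% and 3.42%. The median log2 ratio of the list was -0.85. Among the 6 was the keratin gene Krt18, with 76.3% of its naive-low UMIs in 5 cells. With other cell types left out 5 were lower and the median was -0.88. Pou3f1 (ENSMUSG00000090125, chr4:124656807-124660655), also called OCT6, a POU factor of the post-implantation epiblast, stood at 74.5 CPM in the naive-low group and at 19.1, 13.5 and 13.8 CPM in the others. Its log2 ratio was -2.43 (-2.82 to -2.07), a 5.37-fold difference, and -2.39 after removal of the 5 cells with the most UMIs in each group. Pou3f1 was detected in 39.2% of naive-low cells without other cell types, after thinning, and in 22.2, 15.1 and 20% of the other groups (54.5, 36.2, 25.9 and 30.8% unthinned). In feeder-like cells it was found in 1 of 8. Level and share were both highest in the naive-low group, and the 3 other groups had no order in the share.

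The de novo DNA methyltransferase Dnmt3b stood at 122, 69.2, 67.2 and 67.6 CPM (-0.85, -1.04 to -0.66), with the 3 upper groups alike. Its relative Dnmt3a stood at 56.0, 45.7, 48.3 and 30.7 CPM (-0.87, -1.15 to -0.59), lowest in the naive-high group. Without Dppa3 in the score the Dnmt3a ratio was -0.44. The claudin Cldn6 had a log2 ratio of -0.80 and the surface sialoglycoprotein Cd24a -0.75, which became -0.61 and -0.56 without other cell types. Zic5, a zinc finger factor, went the other way at 0.55 (0.15 to 0.96). Otx2, a homeobox factor of the formative epiblast, was under the level limit, with 66 UMIs in naive-low and 23 in naive-high cells. Fgf5, the classical marker of the primed epiblast, had 19 UMIs in naive-low and 0 in naive-high cells.

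**Figure D3:**
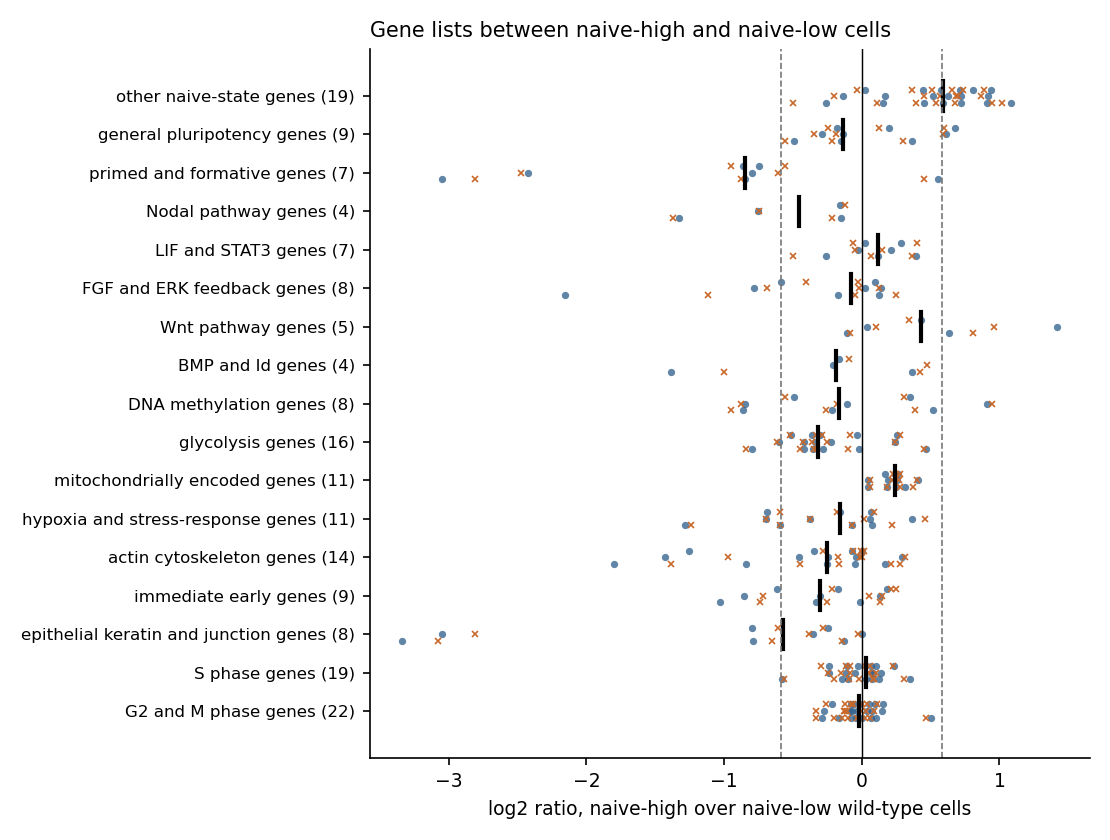
Log2 ratio of naive-high over naive-low wild-type cells for each tested gene of the lists, with dots for all cells, orange crosses for the same gene without other cell types, black bars for medians and dashed lines at 1.5-fold. The naive list lies mostly above 0 (median 0.59) and the primed list mostly below 0 (median -0.85). The imprinted, Rhox and lineage marker lists are not drawn.

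Signalling lists differed less. Over all genes tested, 2.02% were at least 1.5-fold higher and 3.42% lower. Of 7 LIF and STAT3 genes tested, none passed 1.5-fold and the median was 0.12. Socs3, the feedback inhibitor of this pathway, stood at 45.3 CPM in naive-low and 59.6 CPM in naive-high cells (0.39, 0.15 to 0.64). Among 8 FGF and ERK feedback genes, Ier3 (-2.16), the ERK phosphatase Dusp6 (-0.78) and the receptor Fgfr1 (-0.59) were lower in naive-high cells. With other cell types left out 7 genes of this list were tested and none was called. Ier3, at -1.11, and Dusp6, at -0.69, were then under the level limit, Spred2 (0.19) was above it, and Fgfr1 stood at -0.41. The ERK targets Etv4 and Etv5 lay at 0.10 and 0.02.

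In the Nodal pathway 2 of 4 genes tested were lower in naive-high cells (3.42% of all genes). Lefty1 (chr1:180935022-180938400), a secreted Nodal inhibitor, stood at 209, 127, 139 and 82.9 CPM (-1.33, -1.5 to -1.17), and the SMAD corepressor Skil had a ratio of -0.75. Lefty2, its neighbouring paralog, did not pass the limit (-0.16, -0.34 to 0.03). Lefty1 was detected in 48.3% of naive-low and 38.9% of naive-high cells after thinning, a narrower gap than in the level (56.8 and 47.0% unthinned). Of 4 BMP and Id genes, 1 was lower (3.42% of all genes): Id1, an inhibitor of differentiation factors, stood at 44.3, 29.5, 23.0 and 16.9 CPM (-1.38, -1.76 to -1.03). Of 5 Wnt pathway genes, Cdx1 (1.42) and Sfrp1 (0.63) were higher (2.02% of all genes). Sfrp1 stayed past 1.5-fold under 18 of the 24 alternatives given below. Of 8 DNA methylation genes, Tet2 was higher and Dnmt3a and Dnmt3b lower (2.02% and 3.42% of all genes). Tet1 lay at 0.52 (0.35 to 0.69) and Dnmt3l at -0.49 (-0.66 to -0.33).

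Outside the lists, or leading them, 12 genes had the highest ratios with all cells among genes past 1.5-fold with and without other cell types. Ticrr, a factor needed to start DNA replication, led with 23.8, 33.0, 51.5 and 67.0 CPM (1.49, 1.2 to 1.79). Rgcc, a cell-cycle regulator, stood at 23.3, 37.9, 44.6 and 58.8 CPM (1.33, 1.04 to 1.64). Both increased through the 4 groups. Myl4, an atrial myosin light chain, stood at 13.0, 17.8, 24.4 and 33.4 CPM (1.36), and Mapt, which encodes the microtubule-binding protein tau, at 15.6, 23.5, 27.0 and 36.7 CPM (1.23). Zfp553, Nfatc2ip, Fbrsl1, Tbc1d13 and Swt1 had ratios of 1.2, 1.17, 1.16, 1.06 and 1.05, and Jam2, above, 1.09. After removal of the 5 cells with the most UMIs in each group, the 12 ratios lay between 1.11 (Swt1) and 1.67 (Cdx1).

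The calls of Cdx1 and Klhl13 ended when certain genes were left out of the score. Cdx1, a caudal-type homeobox factor, stood at 12.4, 38.1, 24.8 and 33.4 CPM (1.42, 1.01 to 1.85), without an order among the 3 upper groups. Its ratio was 0.96 (0.59 to 1.34) without other cell types, 0.31 when Tfcp2l1 was left out of the score and 0.38 when Tbx3 was. Klhl13, a ubiquitin ligase adaptor on the X chromosome, stood at 35.9, 34.9, 50.2 and 75.9 CPM (1.08, 0.83 to 1.33). Without Dppa3 in the score its ratio was 0.17. The homeobox gene Rhox5 behaved likewise, at 1.02 with and 0.27 without Dppa3.

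On the lower side, Car2 (chr3:14886273-14900770), which encodes a cytosolic carbonic anhydrase, had the largest ratio of the 12 lowest genes with 50.1, 9.18, 7.59 and 3.69 CPM (-3.73, -4.52 to -3.09). In the naive-low group 49.6% of its UMIs came from 5 cells, and without the 5 richest cells of each group the ratio was -3.28. It was detected in 25% of naive-low cells without other cell types and in 4.86% of naive-high cells after thinning (32.4 and 9.73% unthinned). Pim2, a serine/threonine kinase, stood at 34.7, 10.4, 8.15 and 6.41 CPM (-2.42, -3.01 to -1.90). The cyclin-dependent kinase inhibitor Cdkn1c, an imprinted gene, stood at 47.1, 22.1, 19.4 and 16.3 CPM (-1.52, -1.90 to -1.17). For all 3 genes the step lay between the naive-low and the lower-middle group.

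Several of the lower genes are also fibroblast genes, and their ratios shrank without other cell types. The tropomyosins Tpm1 and Tpm4 had log2 ratios of -1.80 and -1.43 with all cells and -1.39 and -0.97 without. Anxa2, a membrane-binding annexin, had -1.82 and -1.27, and the collagen chaperone Serpinh1 -1.39 and -0.88. Vim, the mesenchymal intermediate filament, went from -1.25 to 0.01, and Sparc from -0.77 to 0.03. Meg3, a noncoding RNA, had 99.2 CPM in the naive-low group and under 1 CPM in the others, and its ratio of -7.68 became 0.14. Of 14 actin cytoskeleton genes 4 were lower with all cells (3.42% of all genes) and 2 (Tpm1 and Tpm4) without other cell types (2.42%). The 3 fibroblast markers tested were all lower, and without other cell types none reached the level limit.

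The Rhox6 difference came from 1 cell. Rhox6, a reproductive homeobox gene of the X chromosome, stood at 74.2, 4.59, 6.85 and 7.18 CPM, but 391 of its 417 naive-low UMIs were in a single cell. Without that cell the log2 ratio was 0.62 (-0.14 to 1.41) in place of -3.35. Rhox9 also had 165 of its 200 naive-low UMIs in 1 cell. Without that cell it remained lower in naive-high cells, with a log2 ratio of -0.99 (-1.96 to -0.12).

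Krt8 and Krt18, the keratin pair of simple epithelia, were concentrated in a few cells of the naive-low group. Krt8 stood at 69.5, 6.53, 7.22 and 6.80 CPM (-3.34, -3.90 to -2.85), and Krt18 at 90.9, 9.71, 8.33 and 10.9 CPM (-3.05, -3.49 to -2.66). Without the 5 richest cells of each group the ratios were -1.19 and -1.26. Of the 176 naive-low cells without other cell types, 26 held at least 2 thinned keratin UMIs (14.8%, 9.88 to 20.9%), against 9, 4 and 7 of 185 cells in the other groups (4.86, 2.16 and 3.78%). Pou3f1 was detected in 17 of these 26 cells (65.4%, 44.3 to 82.8%) and in 52 of the other 150 (34.7%, 27.1 to 42.9%).

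Part of the differences from naive-high cells was also found in the remaining 150 naive-low cells. Pou3f1 stood at 183 CPM in the 26 keratin-positive cells, at 57.3 CPM in the other 150 and at 13.8 CPM in naive-high cells. Against these 150 cells, log2 ratios of naive-high cells were -2.05 for Pou3f1, -2.94 for Car2, -2.33 for Pim2, -1.18 for Lefty1, -1.27 for Ddit4 and -0.82 for Dnmt3b. The ratio was 0.81 for Klf2. Of 22 called genes measured in this way, 15 were past 1.5-fold against these cells. Within it were Cldn6 (-0.30), Cd24a (-0.31), Bnip3 (-0.54), Id1 (-0.55), Tpm4 (-0.56), Sox2 (0.52) and Rhox6 (0.38). These genes were chosen after their values were seen, and the 150 cells are part of the naive-low group that called them. The count therefore describes the selection, and no share over all genes is set beside it. Over the 8 epithelial keratin and junction genes tested, 4 were lower in naive-high cells (Krt8, Krt18, Cldn6 and Cldn7), against 3.42% of all genes. Krt18 and Cldn6 are also in the primed and formative list, so the lists overlap. The adhesion genes Epcam and Cdh1 lay at -0.35 and -0.24.

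**Figure D4:**
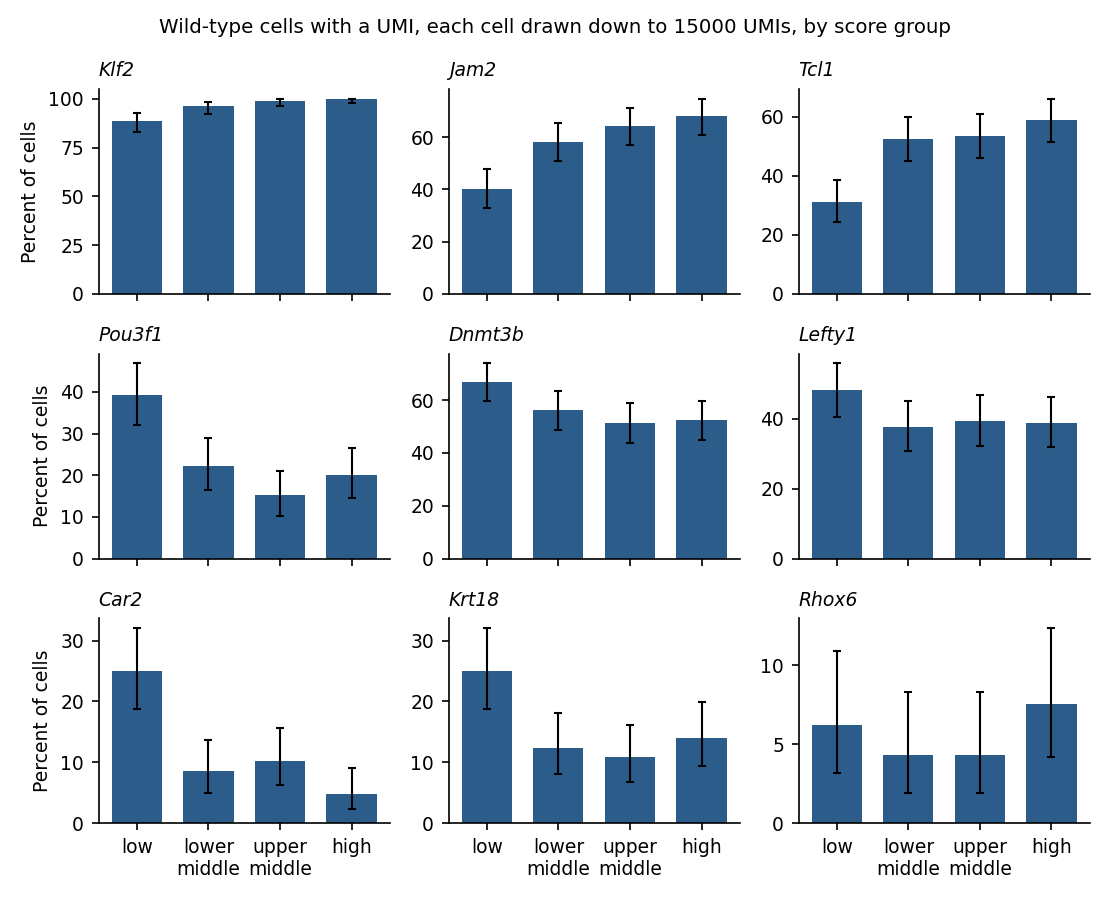
Percentage of cells with at least 1 UMI after thinning to 15000 UMIs (vertical axis, from 0) for 9 genes in the 4 wild-type score groups, the naive-low one without other cell types, with exact binomial intervals. Pou3f1 (39.2%) and Car2 (25%) were found most often in naive-low cells, while Rhox6 was found in 6.25% of its cells and 7.57% of naive-high cells.

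Most glycolysis genes lay below 0 and all mitochondrially encoded genes above it. Of 16 glycolysis genes tested, 2 were at least 1.5-fold lower (3.42% of all genes), 3 lay above 0 and 13 below (44.5% of all genes lay above) and the median was -0.32, or -0.25 with TMM factors, where 11 lay below 0. The glucose transporter Slc2a1 stood at 232, 184, 157 and 133 CPM (-0.80, -0.94 to -0.67), and lactate dehydrogenase Ldha at 1447 CPM in naive-low and 955 CPM in naive-high cells (-0.60, -0.65 to -0.55). Slc2a1 was lower in each group than in the one before. The second transporter, Slc2a3, lay on the other side at 0.25 (0.16 to 0.35). All 11 mitochondrially encoded genes lay above 0, none passed 1.5-fold and the median was 0.24 (0.32 with TMM factors). The mitochondrial share of counts, on which cells were filtered, moved with them.

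Among 11 hypoxia and stress-response genes, 4 were lower in naive-high cells (3.42% of all genes). The median was -0.16, with 4 genes above 0 and 7 below. The whole list summed to 2832, 2345, 2806 and 2858 CPM from the naive-low to the naive-high group, so its total was not lower in naive-high cells. Ddit4, an inhibitor of mTORC1 induced by hypoxia and stress, stood at 185, 114, 81.8 and 75.9 CPM (-1.28, -1.46 to -1.12). The oxygen sensor Egln3 had a ratio of -0.70, the stress factor Ddit3 -0.69 and the mitophagy receptor Bnip3 -0.59. Atf4 lay at -0.07 (-0.18 to 0.03). Of 9 immediate early genes, Jun (-1.03), Klf6 (-0.86) and Fosb (-0.62) were lower, while Fos (-0.01) and Egr1 (-0.17) were within 1.5-fold. The median of this list was -0.31 with all cells and 0.05 without other cell types, where 2 genes were called and Fosb was -0.21. All 9 imprinted genes tested lay below 0 (44.5% of all genes lay above), with a median of -0.57. Of them 4 were called: Cdkn1c, Meg3, Peg10 (-0.94) and Grb10 (-0.78). With other cell types left out 8 were tested and 3 called.

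None of the 19 S phase genes and 22 G2 and M phase genes passed 1.5-fold, and their medians were 0.03 and -0.02. Marker lists of other lineages were low. Mesoderm and streak markers summed to 16.9 CPM in the naive-low group and 9.88, 5.74 and 7.96 CPM in the others. Within this list T, the brachyury gene, had 23 UMIs in naive-low and 1 in naive-high cells, and Hand1, a basic helix-loop-helix factor, 23 and 3. Neuroectoderm markers summed to 42.9, 37.8, 38.3 and 37.1 CPM and trophectoderm markers to 35.7, 23.8, 37.2 and 35.9 CPM. Of the latter Tfap2c, an AP-2 factor also active in germ cells, was higher in naive-high cells (0.85), and its ratio was 0.10 without Dppa3 in the score. Primitive endoderm markers summed to 165 CPM in the naive-low group, 83.4 CPM there without other cell types, and 78.3, 83.3 and 81.4 CPM above. Genes of 2-cell-like cells had 1, 0, 0 and 1 UMIs.

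Knockout cells were then scored with the wild-type means and SDs. Their median score was -0.36 (-0.41 to -0.32) against 0.01 in the wild type. Of 632 cells, 82 lay above the wild-type upper limit (13.0%, 10.5 to 15.8%) and 325 below the lower one (51.4%, 47.4 to 55.4%), where the wild type has 25% on each side by construction. The 325 cells below held 69 of the 81 primitive endoderm-like and all 18 feeder-like cells. Among the 533 cells without other cell types the median was -0.30, with 15.4% above and 45.8% below.

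The gap differed with the chromosome 8 share. Without other cell types, the 268 knockout cells with the usual share had a median of -0.01, with 25.7% above and 29.1% below the limits. The 265 with a raised share had a median of -0.50, with 4.91% above and 62.6% below. In the wild type the 663 cells with the usual share had a median of 0.02 and the 68 with a raised share -0.16. When the score was remade from the wild-type cells of usual share without Dppa3, an alternative added after seeing the data, the 268 knockout cells had a median of 0.12. Klf2 and Zfp42 lie on chromosome 8 but no gene of the score does. With 1 library of each genotype, genotype, culture and chromosome 8 dosage cannot be told apart.

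The genes of the score did not contribute alike. Without other cell types the mean z-score of knockout cells was -0.56 for Dppa3, -0.41 for Nanog, -0.32 for Klf4, -0.26 for Tfcp2l1, -0.05 for Esrrb and 0.12 for Tbx3. Dppa3 stood at 119 CPM over all kept wild-type and 31.0 CPM over all kept knockout cells. Within the knockout, without other cell types and from below (238 cells) through between (213) to above the limits (82), Nanog stood at 33.6, 79.6 and 154 CPM and Tbx3 at 18.2, 62.7 and 168 CPM. Dppa3 stood at 33.7, 38.6 and 24.3 CPM, without the order of the other genes. Grouped by the other 5 genes within the knockout, Dppa3 had 47.6 CPM in the lowest and 18.2 CPM in the highest group (-1.38, -1.85 to -0.96), while Nanog, Klf4, Tfcp2l1, Esrrb and Tbx3 had log2 ratios of 1.13, 1.24, 1.37, 1.47 and 2.06.

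The knockout library, which had no part in choosing the wild-type genes, showed most of the wild-type directions. Without other cell types, knockout cells above the upper limit were compared with those below the lower one, and 12.5% of 4647 genes tested were at least 1.5-fold higher and 5.83% lower. Of the 74 genes higher in naive-high wild-type cells, 72 were also higher in the knockout (97.3%, against 48.6% of all genes), and 63 by at least 1.5-fold. Of the 105 lower genes, 88 were also lower (83.8%, against 51.4%), and 53 by at least 1.5-fold. With only cells of usual chromosome 8 share the figures were 78 of 81 and 95 of 120. Across genes the log2 ratios of the libraries had a Pearson coefficient of 0.55, which describes genes and not replicates. In these cells without other cell types, median mitochondrial shares were 3.85% below, 4.54% between and 5.48% above the limits, and raised chromosome 8 shares were found in 68.0, 41.5 and 15.9%.

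**Figure D5:**
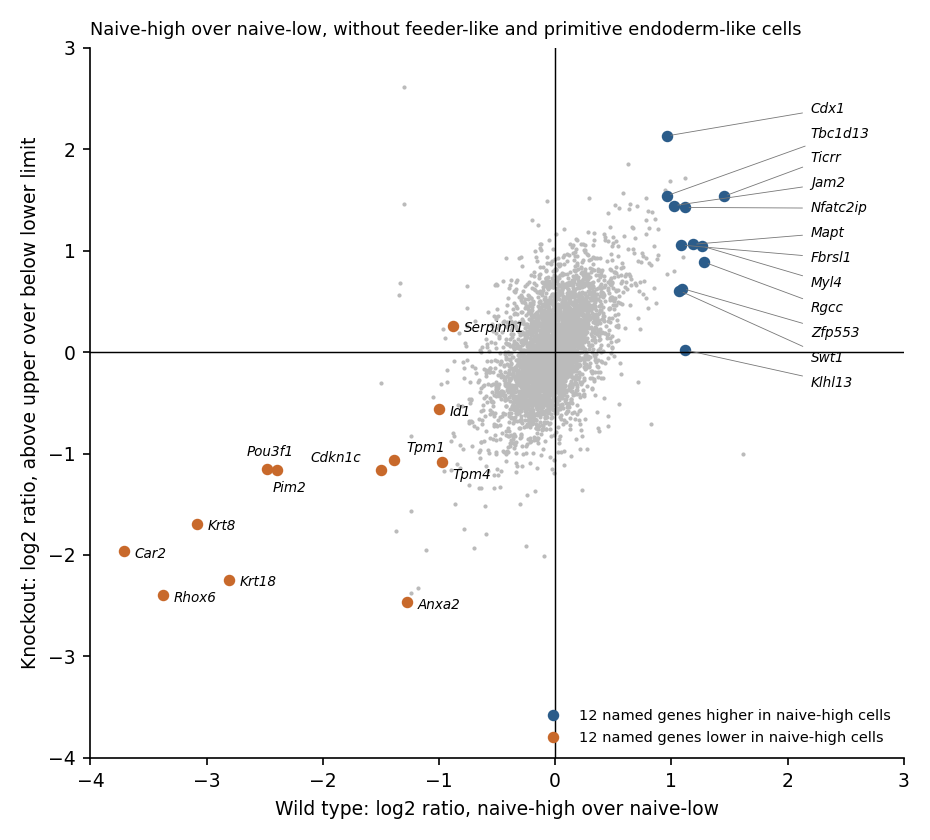
Log2 ratio of naive-high over naive-low cells for each tested gene in the wild type (horizontal axis) and the knockout (vertical axis), without other cell types, with the 24 named genes labelled. All named genes but Serpinh1 (0.26 in the knockout) lie in the lower left or upper right, with Klhl13 near 0 in the knockout (0.02). The place of Rhox6 rests on 1 wild-type cell, without which its wild-type ratio was 0.60 (-0.16 to 1.41). In knockout cells above the limit Rhox6 stood at 0.476 CPM.

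By group, 11 of 19 other naive-state genes were at least 1.5-fold higher in knockout cells above the limit, and the median was 0.67. Over all 4343 genes tested in the wild type, 9.58% were higher and 7.16% lower by this fold in the knockout. Jam2 had 1.44 (1.14 to 1.75), Tet2 1.60, Zfp57 1.22, Mybl2 0.89 and Tcl1 0.96. Klf2 had 0.48 (0.38 to 0.58), under the limit. Ooep and Dppa5a lay on the other side, at -0.22 and -0.25, while both were above 0 in the wild type. In the primed list 4 of 7 genes were lower and 1 higher (Zic5, 1.10), with a median of -0.80. Pou3f1 had -1.15 (-1.62 to -0.73), Dnmt3b -0.80 and Cldn6 -1.52, whereas Dnmt3a stood at 0.14 (-0.07 to 0.34). Of the named higher genes Ticrr had 1.53 and Cdx1 2.13, and of the lower ones Car2 had -1.97 and Lefty1, from the Nodal list, -1.76. Of 16 glycolysis genes 9 were lower and 1 higher, with a median of -0.63. None of the 11 mitochondrially encoded genes passed the fold, with a median of 0.51. Of 11 hypoxia and stress-response genes 8 were lower, with Ddit4 at -2.37 and Bnip3 at -1.80. No difference between the libraries' ratios was tested.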

How the data were processed

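The authors deposited, per the file headers, raw UMI counts per gene and cell for 1 wild-type and 1 SRF knockout library. Cell Ranger 2.0.0, Seurat 3.1.1 and build mm10 are named in the submitters' processing notes, and filters made before deposit are not given in the sources used here. Library totals were 24005849 and 22277996 UMIs. Of 27998 genes, 27722 (99.0%) matched GENCODE mouse release 21 for positions. Cells were filtered and scored as described, and UMIs were summed over the cells of a group, with a pseudocount of 0.5. Genes whose mean over the compared groups reached 20 CPM were set against 1.5-fold. Intervals at 95% were exact Poisson for levels, conditional binomial for ratios and Clopper-Pearson for shares. Code was tested on simulated data. The text names the 6 score genes, the genes of 25 lists (those on naive, general and primed pluripotency, signalling, metabolism, cell cycle and other lineages, all given above) and the 12 genes highest and 12 lowest in ratio that passed 1.5-fold with and without other cell types. The members and lists were chosen with earlier results of these data known. The comparisons of middle groups, richest cells, keratin-positive cells and Dppa3 classes were added after seeing the data. Random groups were not drawn. Scrublet (scanpy 1.11.5) called 5 wild-type and 1 knockout cell as doublets, which were kept and left out in an alternative, and the call rate is low. Python 3.11.15, numpy 2.4.6, scipy 1.17.1, pandas 2.3.3 and matplotlib 3.10.9 were used.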

Additional observations from a re-analysis of the deposited data

Results flagged for a closer look

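Without other cell types, 2 genes that reached the level limit in both libraries lay on opposite sides in them, each past 1.5-fold and with counting intervals off 0. The difference was not tested. Phf21a, which encodes a subunit of a histone demethylase complex, had a log2 ratio of -0.76 in the wild type (15.0 CPM in naive-high and 25.5 CPM in naive-low cells) and 0.65 in the knockout (27.1 and 17.3 CPM). RP23-4H17.3, an unnamed transcript on chromosome 7, had -1.30 in the wild type (19.7 and 48.9 CPM) and 2.61 in the knockout (335 and 54.6 CPM). Tfap2c, under the level limit in the knockout, also lay on opposite sides, at 0.82 in the wild type and -0.70 in the knockout (9.03 and 15.0 CPM).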

How the results depend on the processing

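Each result was recomputed under 24 alternatives, 3 of them combinations added after seeing the data. Counts of genes higher and lower in naive-high cells (88 and 149) were 53 and 89 with 246 cells per group, 297 and 497 with 74 cells per group, 167 and 317 at a minimum of 10 CPM and 28 and 47 at 50 CPM, and TMM factors gave 136 higher. The naive list's median was 1.46 with 74 cells per group, and the primed list's -1.29 with 74 cells per group and -1.95 at 50 CPM. Klf4 against the other 5 genes was 1.03 after thinning. Of 65 named genes past 1.5-fold, 39 stayed past it under every alternative. Direction reversed for Meg3 (0.14), Sparc (0.026) and Vim (0.014) without other cell types, for Meg3 (0.18) and Sparc (0.20) when Dppa3 also left the score, for Meg3 (0.14) when cells of raised chromosome 8 share also left, and for Meg3 (0.17) and Sparc (0.14) with all 3. The knockout median score was -0.31 after thinning and without Nanog, -0.42 without Tbx3, -0.30 without other cell types and -0.11 with usual chromosome 8 share. The added combinations gave -0.23 (no other cell types, no Dppa3), -0.021 (no other cell types, usual chromosome 8) and 0.12 (all 3), which reverses the sign. The share of knockout cells above the limit was 10.1% with ranks, 9.18% without Tbx3, 16.9% without Dppa3, 20.9% with usual chromosome 8, and 20.1, 23.5 and 31.7% in these combinations. The share below was 47.3% after thinning, 45.8% without other cell types, 45.1% without Dppa3, 37.6% with usual chromosome 8, and 39.8, 29.1 and 23.9% in the combinations. Lower genes also lower in the knockout were 83.8% without other cell types and 79.2% with usual chromosome 8 as well. The causes were not tested. No paired analysis was possible because the wild type and the knockout are a single library each, so that no library could be left out either. Genes under 20 CPM in the wild type entered no count of calls, and counts of list members in the knockout cover genes tested in the wild type, whatever their knockout level.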

Other observations

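Since Dppa3 did not follow the other 5 genes, wild-type cells without other cell types were also split by Dppa3 alone, a choice made after seeing the data. After thinning, 359 of the 731 cells held no Dppa3 UMI, 202 held 1 or 2 and 170 at least 3. The score of the other 5 genes had a median of 0.03 in cells with none and 0.00 in cells with at least 3. Of 4308 genes tested, 68 were at least 1.5-fold higher and 71 lower in the cells with at least 3. Klhl13 stood at 15.8 CPM without and 114 CPM with Dppa3 (log2 ratio 2.84), Rhox5 at 22.9 and 97.3 CPM (2.08) and Tfap2c at 12.9 and 48.7 CPM (1.92). The metallothioneins Mt2 and Mt1 had ratios of 1.76 and 1.43, and the germ-line gene Tdrd12 1.5. In the knockout, where 32 of 533 cells held at least 3 UMIs, the ratios were 3.14 for Klhl13, 1.57 for Rhox5, 1.82 for Tfap2c, 0.82 for Mt2, 0.71 for Mt1 and 1.05 for Tdrd12.

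Lower in cells with Dppa3 were Cdx1, at 40.7 CPM without and 7.87 CPM with it (-2.36), the pyruvate carrier gene Mpc1, at 91.0 and 29.9 CPM (-1.60), Id1 (-1.69), Pou3f1 (-1.64) and Dnmt3a (-1.27). The knockout ratios were -1.04 for Cdx1, -0.98 for Mpc1, -1.26 for Id1, -0.37 for Pou3f1 and -1.04 for Dnmt3a. Nanog stood at 87.1 CPM without and 138 CPM with Dppa3 (0.66), whereas Tbx3 had -0.60, Klf4 -0.30 and Esrrb -0.11. Dnmt3b lay at -0.03. The other naive-state list had a median of 0.03, with 2 of 19 genes higher and 2 lower. The primed list had -0.03, with 1 of 7 higher and 3 lower. Over all genes 68 of 4308 were higher and 71 lower. Median depth was 27254 UMIs in cells without and 29923 UMIs in cells with at least 3 Dppa3 UMIs, and the part of depth was not tested.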
